A study of Bos taurus with 6 samples.

Results

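A set of 8 genes of the sterol regulatory element-binding protein (SREBP) system were listed for this report, and the 5 with a gene name in the study's lists of differentially expressed (DE) mRNAs were analysed: SREBF2, INSIG1, SCD, FASN and FADS2. They are 5 of 20459 mRNAs above 0 in the series, of which 1863 have a name. The other 3 of the 8, SREBF1, STARD4 and ACACA, have no name in the shortened copy of these lists used here and were not analysed. A missing name therefore does not show that the study did not call a gene. The listed names belong to mRNAs that the study had selected on their adjusted p-value between its groups, so the members were chosen by the same measured values that are described here. The cells were primary myoblasts of cattle, which can fuse to form muscle fibers, from the longissimus dorsi muscle of fetuses. In the RSV group, 3 cultures received resveratrol, a plant polyphenol, at 20 μM in differentiation medium with DMSO as its solvent. In the DMSO group, the control, 3 cultures received the same medium with DMSO alone, and the series gives 4 days of culture. Both groups are thus differentiating cultures that contain the solvent, and the sources used here do not say how many fetuses gave the cells.

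SREBPs are transcription factors that are made as membrane proteins of the endoplasmic reticulum. When sterols are plentiful, INSIG proteins hold the SREBP and its escort SCAP there. When sterols are scarce, the complex travels to the Golgi, where proteases release the part that enters the nucleus. SREBF2 encodes the form best known for cholesterol synthesis and sterol uptake, and SREBF1 encodes the forms best known for fatty acid synthesis. INSIG1, FASN, SCD and FADS2 are known SREBP targets, and SREBF2 raises its own transcription. In cattle muscle, SCD is known for its part in the share of monounsaturated fat in beef.

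The deposited table gives a group mean of normalized reads, which are read counts divided by a size factor that corrects each library for depth. Whole reads of the single libraries were recovered from the digits of these means. The recovered reads summed to between 11353443 and 13504346 per library over the mRNAs with recovered reads. Libraries carry no replicate number in the table and are named by their size factors, namely 1.09, 1.08 and 1.05 for RSV and 0.964, 0.960 and 0.886 for DMSO. Values of single libraries are given in this order. Among 12 muscle markers looked up for the labelled cell type, TNNT2, a troponin of the thin filament, was the 1 with a name and recovered reads, so the label could not be checked against its defining factors. TNNT2 ranged from 4337 to 4414 normalized reads in RSV and from 2854 to 3047 in DMSO. PDGFRA, a receptor found on fibroblasts and other mesenchymal cells, was the 1 of 8 fibroblast markers with recovered reads and ranged from 6697 to 7277 in RSV and from 9068 to 9381 in DMSO. CNN1, a calponin of smooth muscle, ranged from 1308 to 3719 in RSV and from 4925 to 5629 in DMSO, as the 1 of 5 smooth muscle markers. CD14, the 1 of 5 leukocyte markers, was at 27.7 to 46.5 in RSV and 8.34 to 10.4 in DMSO. Of 8 adipocyte and 5 endothelial markers, 0 had a name and recovered reads, so these cell types were not measured. The part of other cell types in the results was not tested.

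All 5 members were lower after RSV. The log2 fold change (log2FC, the log2 ratio of the group means, RSV over DMSO) ran from −1.21 for FADS2 to −0.37 for FASN, with a median of −0.70, against a median of 0.01 over the 14755 mRNAs tested. The members have a name only because the study had called them DE in this same contrast, so these changes are a description of the members and carry no test. In a fit of all mRNAs with limma voom, a linear model on weighted log2 reads, 5 of the 5 members were called lower at a Benjamini-Hochberg adjusted p under 0.05, and the background share of mRNAs called lower was 17.4%. Over both directions that background was 34.3%, from 5055 calls, and the calls ranged from 2539 to 6289 with 1 library left out. With scaling by total recovered reads, 1981 mRNAs were called lower and 3165 higher, in place of 2567 and 2488. Each RSV library was below each DMSO library for 5 of the 5, as were 26.4% of all tested mRNAs, and 27.0% were higher in the same way. Nothing about the members can be read from these counts. In RNA of whole cultures, fewer cells that make a transcript and less of it per cell cannot be told apart.

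**Figure D1:**
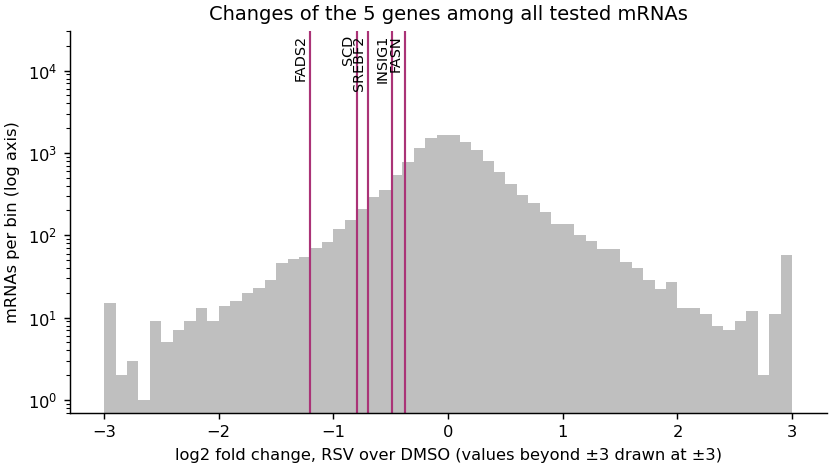
Histogram of the log2 fold change, RSV over DMSO, of the 14755 tested mRNAs (horizontal axis, with values beyond ±3 drawn at ±3) against the number of mRNAs per bin on a log axis. Purple lines mark the 5 members, which all lie left of 0, between −1.21 (FADS2) and −0.37 (FASN).

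SREBF2 (ENSBTAG00000014265) encodes SREBP2, the regulator from which the group takes its name. Its normalized reads were 6691, 7617 and 5039 after RSV, against 9610, 11243 and 10523 in the DMSO libraries. The highest RSV library lay below the lowest DMSO library, at 0.793 of its level. The authors' mean was 6449 in RSV and 10459 in DMSO, and the RSV mean was 61.7% of the DMSO mean, a log2FC of −0.70 (SE 0.14 from limma voom). The SD was 1306 in RSV (n = 3) and 818 in DMSO (n = 3). SREBF2 had the widest spread of the members in either group, and without the RSV library of size factor 1.05 its log2FC was −0.55. The DMSO reads of SREBF2 rest on the least certain of the recovered combinations, with 0.035 other combinations to be found by chance, against at most 0.0039 for the other member means.

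INSIG1 (ENSBTAG00000001592) encodes the anchor that keeps SREBP and SCAP in the endoplasmic reticulum, and it also promotes the sterol-dependent breakdown of HMG-CoA reductase. Its normalized reads were 1831, 1948 and 2100 with RSV. The DMSO libraries had 2723, 2804 and 2746, and all of them were above each RSV library. The mean fell from 2758 ± 42.0 (SD, n = 3) to 1960 ± 135 (SD, n = 3), to 71.1% of the DMSO level and a log2FC of −0.49 (SE 0.06). The DMSO libraries of INSIG1 were the closest to each other of the 5 members, with a coefficient of variation (CV, the SD as a percentage of the mean) of 1.52%.

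FASN (ENSBTAG00000015980) encodes fatty acid synthase, the multifunctional enzyme that builds palmitate from acetyl-CoA and malonyl-CoA. RSV libraries held 6442, 6196 and 7383 normalized reads of FASN, and DMSO libraries held 8428, 8846 and 8670. The groups lay nearest to each other here, with the highest RSV library at 0.876 of the lowest DMSO library. The mean was 6674 ± 627 (SD, n = 3) in RSV and 8648 ± 210 (SD, n = 3) in DMSO. RSV thus left 77.2% of the DMSO level, a log2FC of −0.37 (SE 0.07), the smallest change of the 5.

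SCD (ENSBTAG00000045728) encodes stearoyl-CoA desaturase, which turns saturated into monounsaturated fatty acids. It was at 1201, 1383 and 1436 normalized reads in RSV and at 2267, 2423 and 2268 in DMSO. Each RSV library was below each DMSO library by a wide margin, the highest RSV value being 0.633 of the lowest DMSO value. The means were 1340 ± 123 (SD, n = 3) and 2319 ± 89.7 (SD, n = 3), so that RSV cultures had 57.8% of the DMSO level, a log2FC of −0.79 (SE 0.08).

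FADS2 (ENSBTAG00000015505) encodes the fatty acid desaturase that starts the conversion of essential fatty acids to long polyunsaturated ones. Its RSV libraries had 1238, 1527 and 1025 normalized reads and its DMSO libraries 2802, 2972 and 2962. The distance between the groups was the widest of the 5 members, with the highest RSV library at 0.545 of the lowest DMSO library. The mean fell from 2912 ± 95.5 (SD, n = 3) to 1263 ± 252 (SD, n = 3), to 43.4% of the DMSO level, a log2FC of −1.21 (SE 0.12).

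**Figure D2:**
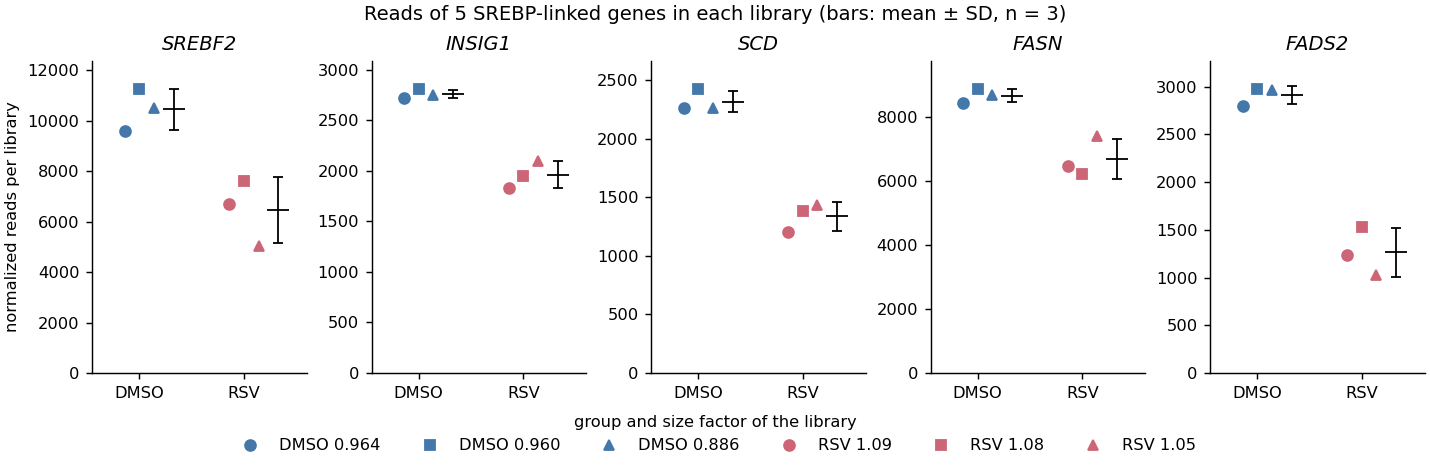
Normalized reads (vertical axes, each from 0) of the 5 members in the 3 DMSO libraries (blue) and 3 RSV libraries (red), with marker shapes for the size factors and black bars for the mean ± SD (n = 3). For each gene the 3 RSV points lie below the 3 DMSO points, and the triangle of the RSV library of size factor 1.05 is the lowest RSV point for SREBF2 and FADS2 and the highest for INSIG1, SCD and FASN.

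In order of the size of the fall, FADS2 came before SCD, SREBF2, INSIG1 and FASN. FADS2 and SCD differed in log2FC by 0.41, more than the sum of their standard errors (0.20). SCD and SREBF2 differed by 0.09, less than the sum of theirs (0.21), and SREBF2 and INSIG1 by 0.20, about as much as theirs (0.20). INSIG1 and FASN differed by 0.12, less than the sum of their standard errors (0.13). By this measure, which leaves out that the members share their libraries, the order of these neighbours below FADS2 was not settled. As a share of its DMSO mean, INSIG1 was lower than FASN in each RSV library. SCD with SREBF2, and SREBF2 with INSIG1, changed order between RSV libraries. Counting error was between 0.96% and 3.04% of the reads of a member in a library. In the DMSO libraries of INSIG1 it was 1.93% to 2.03%, above their CV of 1.52%.

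The members took different places among the RSV libraries. The members were chosen through calls on these same libraries, so their places are a description. The RSV library of size factor 1.05 had the lowest SREBF2 and FADS2 of its group, 29.6% and 25.9% below the mean of the other RSV libraries. The same library had the highest INSIG1, SCD and FASN of its group, 11.1%, 11.1% and 16.8% above that mean. As shares of the DMSO mean, SREBF2 was at 64.0%, 72.8% and 48.2% in the RSV libraries. FADS2 was at 42.5%, 52.4% and 35.2%. FASN, in contrast, was at 74.5%, 71.6% and 85.4%, its smallest fall being in the library where SREBF2 fell most. INSIG1 was at 66.4%, 70.6% and 76.2%, and SCD at 51.8%, 59.6% and 61.9%. CNN1, the smooth muscle marker, was also lowest in the library of size factor 1.05. It had 2387, 3719 and 1308 normalized reads in RSV, the last of them at −57.2% from the mean of the other RSV libraries, and its part in these values was not tested.

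Across the 11108 mRNAs whose mean reached 100 normalized reads, the RSV library of size factor 1.05 was the lowest of its group for 44.1% and the highest for 40.7%. Among the 2216 of them called lower with limma voom, it was the lowest for 74.5% and the highest for 13.1%. SREBF2 and FADS2 were thus placed like most mRNAs that fell, and INSIG1, SCD and FASN like the smaller part. Of 16 enzymes of cholesterol synthesis called lower, 14 had their lowest RSV level in that library and 0 had their highest there. Of the SREBP regulators, 3 of 4 called lower were lowest there, SREBF2 among them, and 1, INSIG1, was highest. In sterol uptake and traffic, 1 of 2 called lower was lowest there and 0 were highest. In fatty acid supply and synthesis, ACLY, SLC25A1 and AACS, 3 of 5 called lower, were lowest there, and 1, FASN, was highest. In desaturation and elongation, 3 of 8 were lowest there (FADS2, ELOVL6 and HACD2) and 3 were highest (SCD, HACD1 and HSD17B12). Without it the log2FC was −0.55 for INSIG1, −0.84 for SCD, −0.45 for FASN and −1.07 for FADS2.

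**Figure D3:**
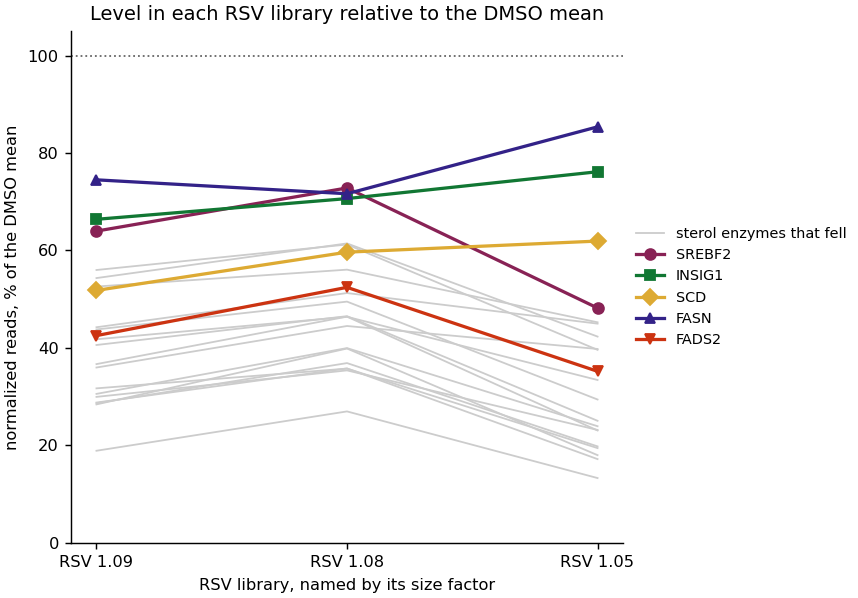
Level of each gene in the 3 RSV libraries (horizontal axis, named by size factor, in no order) as a percentage of its mean in the DMSO libraries (vertical axis), with a dotted line at 100%. Lines join the values of 1 gene, grey for the 16 sterol enzymes that fell and coloured for the 5 members. SREBF2 and FADS2 run with the grey lines to their lowest point at the right (48.2% and 35.2%), while INSIG1, SCD and FASN end at their highest (76.2%, 61.9% and 85.4%).

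RSV libraries differed more from each other than DMSO libraries did for each of the 5 members. The CV in RSV and in DMSO was 20.2% and 7.82% for SREBF2 and 19.9% and 3.28% for FADS2. For SCD it was 9.19% and 3.87%, for FASN 9.39% and 2.42%, and for INSIG1 6.89% and 1.52%. The median CV over the mRNAs with a mean of at least 100 was 8.01% in RSV and 4.88% in DMSO. SREBF2 and FADS2 lay well above that RSV median, while INSIG1, SCD and FASN lay near it.

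Likeness was measured as the Pearson correlation over the 6 libraries of deviations of log2(normalized reads + 0.5) from the group mean. The mean difference between the groups is thereby taken out. Any difference among the RSV libraries in their response to RSV stays in. The 6 points share their libraries and depth, and the 3 RSV libraries, which spread most, carry most of the weight. SREBF2 and FADS2 had a correlation of 0.95, and 6.06% of all other mRNAs with a mean of at least 100 were at least as close to SREBF2. INSIG1 and SCD had a correlation of 0.92, with 2.47% of mRNAs at least as close to INSIG1. FASN was at 0.78 with INSIG1, where 10.9% of mRNAs were at least as close to INSIG1, and at 0.52 with SCD, where 20.0% were at least as close to SCD. Negative values were −0.81 for SREBF2 with FASN, −0.86 for FASN with FADS2 and −0.58 for SREBF2 with INSIG1. SREBF2 with SCD was at −0.24, INSIG1 with FADS2 at −0.48 and SCD with FADS2 at −0.12.

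Of 1576 named mRNAs with a mean of at least 100, the closest to SREBF2 were ISG12(B), SMARCB1 and EXO5, with correlations of 0.998, 0.997 and 0.997. EXO5 rose under RSV (log2FC 1.58) while SMARCB1 fell (−0.47), so likeness within the groups did not go with 1 direction between them. ATP6V0E2, MSX1 and SKI were the closest to INSIG1 (0.994, 0.990 and 0.990), and TENM4, P4HA1 and MIS12 to SCD (0.993, 0.981 and 0.979). FLVCR2, TMEM132A and METTL12 were the closest to FASN, and NEDD9, MARVELD1 and C1orf198 to FADS2, all at 0.997 or more. With so few libraries, correlations this high are found for many mRNAs.

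The other genes of the pathway were taken from lists, and each gene below has a name only through the study's DE lists, as the members do. Among 22 SREBP regulators, 6 had a name, of which 4 were called lower and 2 higher with limma voom, beside background shares of 17.4% and 16.9%. Besides SREBF2 and INSIG1, the COPII coat subunits SEC23A and SEC24D, which carry cargo out of the endoplasmic reticulum, fell, with a log2FC of −0.39 and −0.33. SCAP, the escort and sterol sensor of SREBP, rose instead. RSV libraries had 3897, 3989 and 4299 normalized reads of it and DMSO libraries 2902, 3311 and 3064, without overlap, a log2FC of 0.39 (SE 0.07). SYVN1, a ubiquitin ligase of the endoplasmic reticulum, rose by a log2FC of 0.38 (SE 0.07). SREBF2 and INSIG1 thus moved against SCAP, in opposite directions between the same libraries.

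Of 16 genes of sterol uptake and traffic, 3 had a name. TMEM97, a sterol-responsive membrane protein that binds NPC1, fell from a mean of 960.2 to 538.9 normalized reads (log2FC −0.83, SE 0.08). LRPAP1, a chaperone of LDL receptor family members, fell from 3444 to 1984 (log2FC −0.80, SE 0.12). GRAMD1B, which moves cholesterol from the plasma membrane to the endoplasmic reticulum, rose from 262.5 to 383.2 (log2FC 0.55, SE 0.12). These are 2 called lower and 1 called higher. The remaining 13 genes of this list, the LDL receptor among them, have no name and were not analysed here.

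Of 12 genes of fatty acid supply and synthesis, 5 had a name and 5 of these were called lower, beside the background of 17.4%. As names exist only for mRNAs the study had called, the count says nothing about the list, here and in the lists that follow. ACSS2, which makes acetyl-CoA from acetate, a main carbon source of lipogenesis in ruminants, had the largest fall, from a mean of 238.5 to 87.4 normalized reads (log2FC −1.45, SE 0.14). ACLY, which makes acetyl-CoA from citrate, fell from 6948 to 3894 (log2FC −0.84, SE 0.09). SLC25A1, the mitochondrial citrate carrier, and AACS, which activates acetoacetate, had a log2FC of −0.59 and −0.53. FASN, the enzyme that uses this acetyl-CoA, had the smallest change on this list.

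Of 17 genes of desaturation and elongation, 8 had a name and 8 of these were called lower, beside the background of 17.4%, with a median log2FC of −0.73. ELOVL6, which elongates palmitate to stearate, the substrate of SCD, fell the most. It had 367, 518 and 326 normalized reads in RSV and 1131, 1246 and 1159 in DMSO (log2FC −1.55, SE 0.14), and its lowest RSV level was in the library where FADS2 was lowest. FADS1, the desaturase that acts after FADS2 and whose gene neighbours FADS2 in the RefSeq genes of ARS-UCD2.0, fell less, with a log2FC of −0.66 (SE 0.06). FADS1 had 1238, 1251 and 1241 normalized reads in RSV, against 1864, 2046 and 1995 in DMSO, and did not show the spread of FADS2 among RSV libraries. HACD2, a dehydratase of the elongation cycle, fell by 0.87 on the log2 scale. ELOVL5, HACD1 and HSD17B12, further enzymes of elongation, fell, with a log2FC of −0.55, −0.54 and −0.54.

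Glycerolipid synthesis, which uses the fatty acids, had 2 named genes of 12 and both were called higher, beside the background of 16.9%. DGAT1, which the paper reports as up-regulated, is on this list but has no name in the shortened copy and was not analysed here. GPAT3, an acyltransferase of the glycerol phosphate pathway, rose from a mean of 287.8 to 713.1 normalized reads (log2FC 1.31, SE 0.12). DGAT2, which forms triacylglycerol, rose at a low level, with 26.7, 23.1 and 48.4 normalized reads in RSV and 4.15, 7.29 and 6.77 in DMSO (log2FC 2.43, SE 0.46). Both had their highest RSV level in the library of size factor 1.05. So did every other gene of the lists called higher, namely SCAP, SYVN1, GRAMD1B and the sterol enzyme EBP. The share of all mRNAs called higher that have this place was not computed.

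For comparison, 17 of 22 enzymes of the mevalonate and sterol pathway had a name, and 16 were called lower and 1 higher, beside backgrounds of 17.4% and 16.9%. Their median log2FC was −1.42, against −0.70 for the 5 members. The largest fall of a member, that of FADS2 (−1.21), was smaller than this median. The log2FC of SREBF2 (−0.70, SE 0.14) was nearer to 0 than that of each of the 16 enzymes that were lower. The smallest fall among the enzymes was that of SC5D, the lathosterol desaturase (log2FC −0.92, SE 0.12). SREBF2 differed from SC5D, and from MVK (−0.94, SE 0.15), by less than the sum of their standard errors. Its order with these enzymes was therefore not settled.

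**Figure D4:**
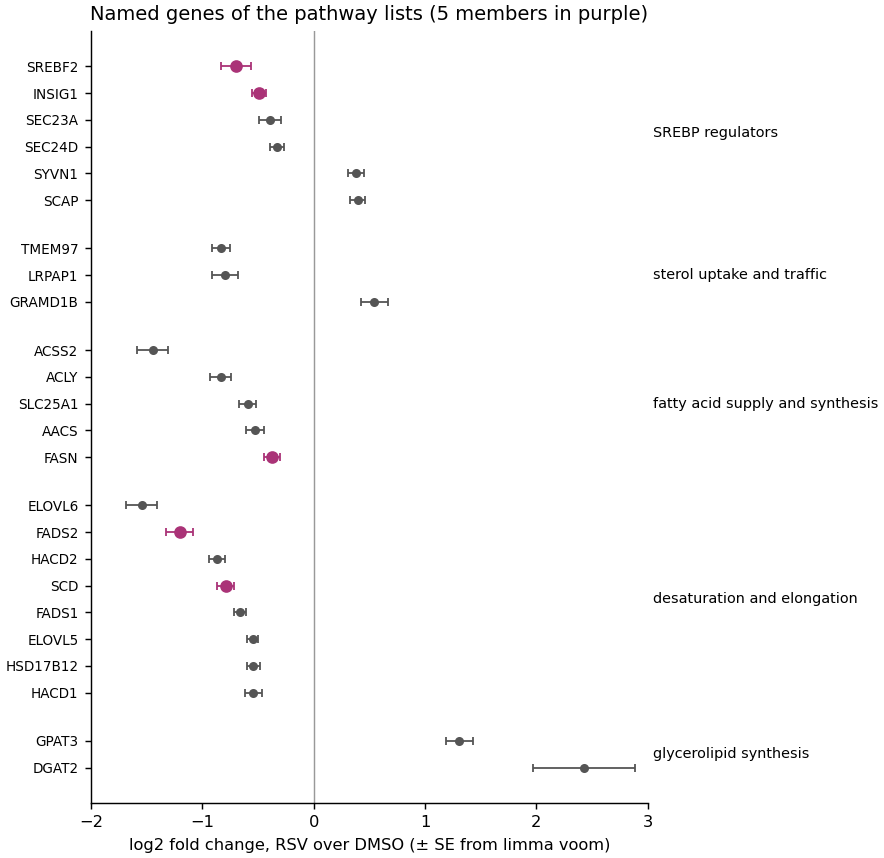
Log2 fold change, RSV over DMSO (horizontal axis, points with the SE from limma voom), of the named genes of 5 pathway lists (vertical axis), with the 5 members in purple. The named genes of fatty acid supply, desaturation and elongation all lie left of 0, from ELOVL6 at −1.55 to FASN at −0.37, while SCAP, SYVN1, GRAMD1B, GPAT3 and DGAT2 lie right of 0.

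An intron of SREBF2 is known to hold the gene of miR-33a, and MIR33A lies within SREBF2 in the RefSeq genes of ARS-UCD2.0. In the miRNA libraries, which were not linked to the mRNA libraries, the authors' mean of bta-miR-33a was 3.04 normalized reads in RSV and 10.2 in DMSO. These means rest on 6, 4 and 2 reads in RSV and 12, 11 and 3 in DMSO, or 3.89, 3.09 and 2.14 against 13.0, 13.4 and 4.12 normalized reads. The RSV libraries were below the DMSO libraries, at a depth where single reads move the values. The highest RSV library, at 3.89, had 6 reads, and the lowest DMSO library, at 4.12, had 3, so their order rests on the size factors. The share of all listed miRNAs that separate in this way was not computed.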

How the data were processed

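RNA of 3 RSV and 3 DMSO cultures was sequenced. The authors deposited 1 table with, per mRNA and miRNA, a mean count of normalized reads for each group. Its fold changes and p-values, the authors' own comparison by DESeq, were not used. Per the labels miRNA reads were mapped with Bowtie 0.12.9. The aligner, counter and annotation of the mRNA reads are not given in the sources used here.

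The mRNA means from 1 upward are written without a decimal point. Each mean was written as a sum of whole reads over 3 size factors, which settled the point and the reads together. A combination was accepted when it was unique and fewer than 0.05 were to be found by chance. Above a mean of 1000, each library was allowed 15% to 60% of the sum, and means above 20000 were not searched. This gave reads for 19960 of 20459 mRNAs (97.6%), and 499 were left out. On simulated means, 2984 of 3000 gave unique reads, of which 2982 were right. The expected levels behind these means stopped short of the largest means searched. They also stopped below the DMSO mean of SREBF2 (10459), so this share was not measured at that level.

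Recovered reads of mRNAs whose mean reached 10 normalized reads were fitted with limma voom (limma 3.58.1, R 4.3.3), without covariates. In simulated reads of 14751 mRNAs, 175 of 200 changed by a log2 fold change of 1 were found and 8 others called. Other steps used Python 3.11.15, numpy 2.4.6, pandas 2.3.3, numba 0.67.0 and matplotlib 3.10.9. The study describes the cultures of a group as independent experiments. The SE is the moderated one of limma, which draws the spread between the libraries of a gene toward that of all fitted mRNAs. It can thus be smaller or larger than the libraries of that gene alone would give. With 3 against 3, an exact permutation test cannot go below 0.10.

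Names came from the identifier and name columns of the study's supplementary lists, which are shortened in the copy used here. The members, the lists and the rule for named genes (the members, every listed gene with a name, the 3 named mRNAs most like each member, and miR-33a) were chosen with earlier results of these data known. No genome of the authors' build was used here, so no coordinates or sequences are given.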

Additional observations from a re-analysis of the deposited data

How the results depend on the processing

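The log2FC of each of the 5 members stayed negative under 10 alternatives and moved by less than the SD between libraries. The alternatives were scaling by total recovered reads or by the upper quartile, a difference of mean log2 values with a pseudocount of 0.5 or 5, and leaving out each library in turn. With a library left out, the log2FC ranged from −0.83 to −0.55 for SREBF2, −0.55 to −0.45 for INSIG1, −0.84 to −0.72 for SCD, −0.45 to −0.32 for FASN and −1.36 to −1.07 for FADS2. For these alternatives the outcome was fixed in advance. The groups do not overlap for any member, so leaving out a library could not change the sign. With so few libraries per group it could hardly move the log2FC by as much as the SD. At these read levels a pseudocount of 0.5 or 5 also changes little. The count of mRNAs called over the whole table was 5055 (2488 higher, 2567 lower). Scaling by total recovered reads turned the split to 3165 higher and 1981 lower. With a library left out the count ranged from 2539 to 6289. It was 2695, 2779 and 2539 without the DMSO library of size factor 0.964, 0.960 and 0.886, and 3553, 5541 and 6289 without the RSV library of size factor 1.09, 1.08 and 1.05, and the cause was not tested. Settings that kept all libraries changed it by less than 1.5 times. Of the 15 mRNAs named as most like a member, 14 were kept with a pseudocount of 5 and 15 with a lower minimum mean of 10. No paired analysis was possible because the deposited table gives its libraries no replicate number. The study's supplementary lists hold values per sample, which were not used here, so the libraries were not tied to replicates. At the depth of miR-33a, single reads move the values.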
